A study of Mus musculus with 15 samples.

Results

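The genes described here are 39 components, inhibitors and response genes of the NF-κB pathway, followed through RNA sequencing of mouse articular chondrocytes in which tankyrase was depleted or inhibited. They were listed by name as pathway genes, with earlier results of these libraries known, and all 39 were found among the 24134 genes of both count tables through their Entrez gene IDs. Each of the 39 also passed the filter on low counts in every comparison. The cells were primary cultures, not passaged, from the knee joint cartilage of ICR mice less than a week old. In the siRNA experiment, 3 libraries came from cells transfected with control siRNA (siCtrl) and 3 from cells in which *Tnks* and *Tnks2*, the genes of both tankyrases, were silenced together (siTnks/2), and no time is stated for this transfection. In the drug experiment, 3 libraries each came from cells kept for 108 h in DMSO, the solvent, or in 10 μM XAV939 or 10 μM IWR-1, which are inhibitors of tankyrase. XAV939 and IWR-1 were given at 1 dose and 1 time, both drug groups share the same DMSO libraries, and each target was silenced with siRNA rather than deleted. The study calls the 3 libraries of a group biological replicates, but the labels do not say which animals or cultures each came from.

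NF-κB is a family of dimeric transcription factors that IκB proteins hold in the cytoplasm. Cytokine and Toll-like receptors signal through adaptor proteins to the IκB kinase complex, which marks IκB for degradation and so frees the dimers to enter the nucleus. Many genes that NF-κB switches on encode its own inhibitors, such as IκBα and A20, and in chondrocytes the pathway is known for raising inflammatory mediators and matrix-degrading enzymes.

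Short promoter stretches are shown because many of these genes are known NF-κB targets and several of them moved together with IWR-1. RefSeq promoter windows, 250 bases before to 50 bases after a start site in the GRCm38 (mm10) assembly, were given for 30 of the 39 genes. Windows were searched on both strands for the kappaB consensus, a pattern of 10 bases, with overlapping matches counted as 1. A match was found for 12 of the 30 genes (40%), against 1388 of 27025 genes with a window (5.14%). Below are the stretches of 8 genes whose level fell with IWR-1, 5′ to 3′ on the strand of the gene, with the matching bases in capitals.
Nfkbia: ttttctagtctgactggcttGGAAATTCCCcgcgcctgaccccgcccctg
Nfkbie: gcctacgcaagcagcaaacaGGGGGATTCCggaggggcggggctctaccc
Bcl3: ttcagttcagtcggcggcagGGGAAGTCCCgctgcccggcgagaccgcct
Nfkb2: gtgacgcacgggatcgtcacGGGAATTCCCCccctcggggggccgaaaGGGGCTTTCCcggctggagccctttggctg
Tnfaip3: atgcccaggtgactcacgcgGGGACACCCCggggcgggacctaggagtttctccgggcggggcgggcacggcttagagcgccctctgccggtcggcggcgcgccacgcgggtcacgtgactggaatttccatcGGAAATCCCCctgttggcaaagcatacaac
Tnip1: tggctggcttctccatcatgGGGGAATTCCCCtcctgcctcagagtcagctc
Irf1: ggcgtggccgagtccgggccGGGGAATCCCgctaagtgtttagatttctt
Sod2: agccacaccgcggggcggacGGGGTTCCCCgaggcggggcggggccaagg
The *Nfkbia* stretch is chr12:55492647-55492696 on the minus strand, *Nfkbie* is chr17:45555574-45555623 on the plus strand and *Bcl3* is chr7:19822724-19822773 on the minus strand. *Nfkb2*, in the first of its 3 windows, is chr19:46304678-46304755 on the plus strand and *Tnfaip3* is chr10:19015393-19015555 on the minus strand, each with 2 separate matches. *Tnip1* is chr11:54962967-54963018 on the minus strand, *Irf1* is chr11:53769981-53770030 on the plus strand and *Sod2* is chr17:13007736-13007785 on the plus strand. The other 4 genes with a match were *Rel*, *Traf3*, *Map3k7* and *Tlr2*, none of which passed the test with IWR-1. With IWR-1, 8 of the 12 genes with a match and 9 of the 18 without one fell. Over all genes tested, 26.3% of those with a match and 19.2% of those without one were lower with IWR-1. A match describes the letters of the window and is not evidence of binding.

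Libraries held between 26857070 and 36615194 counts on genes. Knockdown was seen in the siRNA libraries, with log2 fold changes of -1.81 ± 0.216 (SE) for *Tnks* and -1.10 ± 0.114 for *Tnks2* (adjusted p = 0.00569 and 0.00384). Cartilage genes marked the cells in every library, since 8 chondrocyte markers, among them *Col2a1* and *Acan*, summed to at least 26680 CPM (counts scaled to library size). Of 14 leukocyte markers, 10 or 11 stayed under 1 CPM in every library of a group, and *Ptprc*, the common leukocyte antigen, reached at most 0.157 CPM. *Cd68* (2.33 to 10.15 CPM), *Lyz2* (1.77 to 5.29 CPM) and *Laptm5* (1.04 to 53.8 CPM) were above 1 CPM in every library. The library siTnks/2 replicate 2 stood apart in endothelial markers, whose sum was 8.13 CPM there and at most 1.59 CPM in the siCtrl and drug-experiment libraries.

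Levels of the 39 genes in the controls were compared per kilobase of exon, as CPM per kb (mean ± SD, n = 3). In siCtrl cells the highest was *Icam1*, which encodes an adhesion receptor, at 34.7 ± 1.45, followed by *Rela*, the p65 subunit, at 22.98 ± 3.03. In DMSO cells the highest was *Sod2*, the mitochondrial superoxide dismutase, at 104 ± 13.7, followed by *Nfkbia* at 87.8 ± 10.3 and *Nfkbiz* at 75.2 ± 6.86. The ranges of these 3 genes overlapped from one to the next, whereas *Icam1* and *Rela* did not overlap in siCtrl cells. *Cd40*, a receptor of the TNF family, was lowest in both, at 0.142 ± 0.005 in siCtrl and 0.164 ± 0.042 in DMSO.

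Most of these genes stood higher in DMSO than in siCtrl cells, as CPM scaled within each table. All 3 DMSO libraries lay above all 3 siCtrl libraries for 30 of the 39 genes, below them for 1 (*Traf3*) and among them for 8, while 29.3% of 12549 genes above 1 CPM in at least 3 control libraries lay above and 29% below. The median ratio of the means, DMSO over siCtrl, was 1.97 over the 39 genes and 1.003 over those 12549 genes. In CPM, *Nfkbiz* had 311 ± 28.4 in DMSO and 18.2 ± 5.79 in siCtrl, a ratio of 17.1. *Irak3*, an inhibitory member of the IRAK family, had 64.7 ± 0.946 and 5.38 ± 0.297, a ratio of 12.01. *Sod2* had 611 ± 80.4 and 64.9 ± 2.18, a ratio of 9.43. Transfection, solvent and experiment differ together between these groups, so their parts cannot be told apart, and no test was made across the tables.

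**Figure D1:**
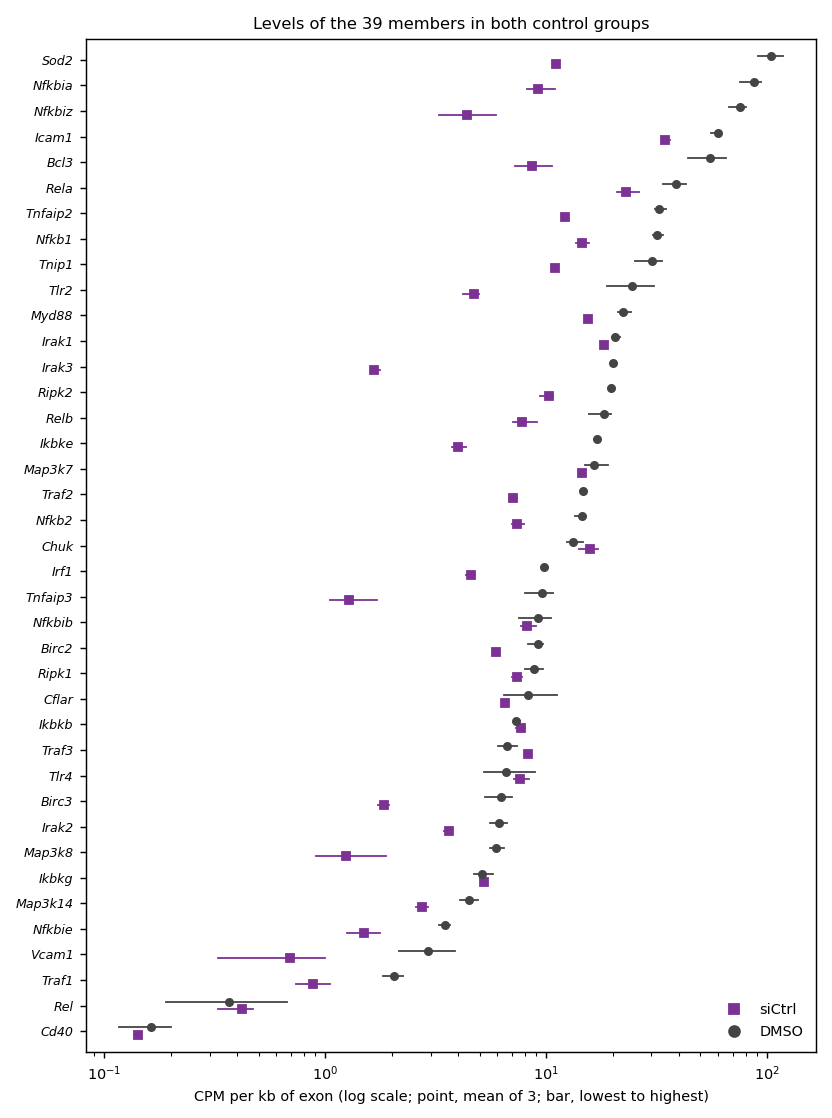
Level of each of the 39 genes in the control groups, in CPM per kb of exon on a log axis, with squares for siCtrl, circles for DMSO, the mean of 3 libraries as the point and the lowest to highest library as the bar. DMSO libraries sit above siCtrl for 30 genes, with the widest gaps at *Nfkbiz*, *Irak3*, *Nfkbia* and *Sod2*.

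Knockdown of both tankyrases moved 8 of the 39 genes past the test and in both directions. *Tnfaip2*, *Traf1*, *Ripk2*, *Cflar* and *Nfkb2* fell, and *Irak2*, *Traf3* and *Tnip1* rose. That is 7.69% higher and 12.8% lower, where 10.4% of the 13672 genes tested were higher and 7.61% lower. Over both directions 2459 of the 13672 genes were called, so the share called among the 39 is near that of all genes. The median log2 fold change was -0.05 over the 39 genes and -0.001 over all genes. All treated libraries lay above the controls for 4 members and below them for 12, and over all genes these patterns were found for 21.6% and 22.2%. With the replicate number as a block, 5 rose and 8 fell, and no call was lost. Calls over all 13672 genes went from 2459 to 4727 with the block. Each of the 8 calls was lost in at least 1 of the 6 fits that left out a library, which were made without the block. The number called was 1 without siCtrl replicate 3, 2 without siCtrl replicate 1 or siTnks/2 replicate 1 and 3 without siCtrl replicate 2. It was 7 without siTnks/2 replicate 2, the library with endothelial markers. *Cflar* was lost without siCtrl replicate 1 alone (adjusted p up to 0.0564), *Irak2* without siCtrl replicate 3 alone (adjusted p up to 0.0504) and *Ripk2* without siTnks/2 replicate 1 or siCtrl replicate 3 (adjusted p up to 0.051). *Nfkb2*, *Tnfaip2*, *Traf1* and *Traf3* were each lost without any siCtrl library or siTnks/2 replicate 1 (adjusted p up to 0.0699, 0.0612, 0.0775 and 0.0924).

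XAV939 also moved members both ways. *Tnfaip3*, *Traf1*, *Nfkbie*, *Nfkbiz* and *Rela* fell, and *Cd40*, *Vcam1*, *Ikbke*, *Myd88* and *Birc2* rose. These are 12.8% of the 39 genes in each direction, beside 7.57% higher and 9.85% lower among 13873 genes tested. Treated libraries were all above the controls for 6 members and all below for 11, patterns that 16.4% and 16.8% of all genes showed. The median log2 fold change was -0.07, against 0.02 over all genes, and lay between -0.13 (without XAV939 replicate 3) and -0.04 (without XAV939 replicate 1 or DMSO replicate 2) in fits that left out a library. With the block, 6 rose and 9 fell, while calls over all 13873 genes went from 2416 to 4630. Without DMSO replicate 1 only 3 calls were made, 2 higher and 1 lower, and 3 genes fell without XAV939 replicate 1 or without XAV939 replicate 3. *Ikbke*, *Tnfaip3* and *Cd40* were called in each of the 9 fits. *Nfkbie*, *Myd88* and *Vcam1* were lost without DMSO replicate 1 alone (adjusted p up to 0.0525, 0.0851 and 0.0659), *Nfkbiz* also without XAV939 replicate 1 (adjusted p up to 0.0552), and *Rela* without DMSO replicates 1 or 2 or XAV939 replicate 3 (adjusted p up to 0.112). With only the groups compared, *Rela* and *Myd88* were lost (adjusted p = 0.0691 and 0.0732), as were *Traf1* and *Birc2*.

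IWR-1 lowered 20 of the 39 genes and raised 2, *Cd40* and *Chuk*, and the promoter stretches printed earlier belong to 8 of the 20. The share lower was 51.3%, where 20.2% of all genes tested were lower, and the share higher was 5.13%, where 16.2% were higher. The median log2 fold change was -0.39 over the members and 0.006 over all genes. All 3 IWR-1 libraries lay below all 3 DMSO libraries for 23 members and above them for 5, which 26.4% and 24.7% of all genes did. Of the 22 calls, 16 held in each of the 9 fits that left out 1 library. *Irf1* and *Tnfaip2* were lost without IWR-1 replicates 1 or 2 (adjusted p up to 0.0582 and 0.0837), *Bcl3* without IWR-1 replicate 1 or DMSO replicate 2 (adjusted p up to 0.0526) and *Chuk* without DMSO replicate 1 (adjusted p up to 0.0514). *Tnip1* was lost without DMSO replicates 1 or 2 or IWR-1 replicates 1 or 3 (adjusted p up to 0.0619), and *Irak2* without DMSO replicates 2 or 3 or any IWR-1 library (adjusted p up to 0.154) and with upper-quartile scaling (adjusted p = 0.0527). In bulk RNA, fewer cells of a type and less RNA per cell cannot be told apart.

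Sums of cell-type markers differed between some of these groups, though the fibroblast-type sum overlapped between siCtrl and siTnks/2. Chondrocyte markers summed to between 26680 and 35790 CPM in DMSO, 36750 and 55010 with XAV939 and 88080 and 110900 with IWR-1, and to between 84410 and 113100 in siCtrl and 119600 and 194300 with siTnks/2. The sum of 5 fibroblast-type matrix genes lay between 12040 and 15080 CPM in DMSO, 6225 and 8119 with XAV939 and 5747 and 8644 with IWR-1, and between 5289 and 9043 in siCtrl and 2781 and 7808 with siTnks/2. The leukocyte sum lay between 15.4 and 17.9 CPM in siCtrl and between 36.8 and 59.2 with siTnks/2, where *Laptm5* had 39.6, 53.8 and 30.7 CPM against 10.9, 13.2 and 10.2. In the drug experiment that sum stayed between 12.96 and 18.3 CPM, but *Laptm5* and *Cd68* moved in opposite directions. *Laptm5* had 1.19, 1.60 and 1.04 CPM with DMSO, 2.86, 3.30 and 2.59 with XAV939 and 9.62, 8.89 and 6.81 with IWR-1. *Cd68* had 7.32, 8.50 and 10.15 CPM with DMSO, 6.39, 7.58 and 8.83 with XAV939 and 4.01, 3.98 and 4.70 with IWR-1. The part of these shifts in the results on the NF-κB genes was not tested.

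**Figure D2:**
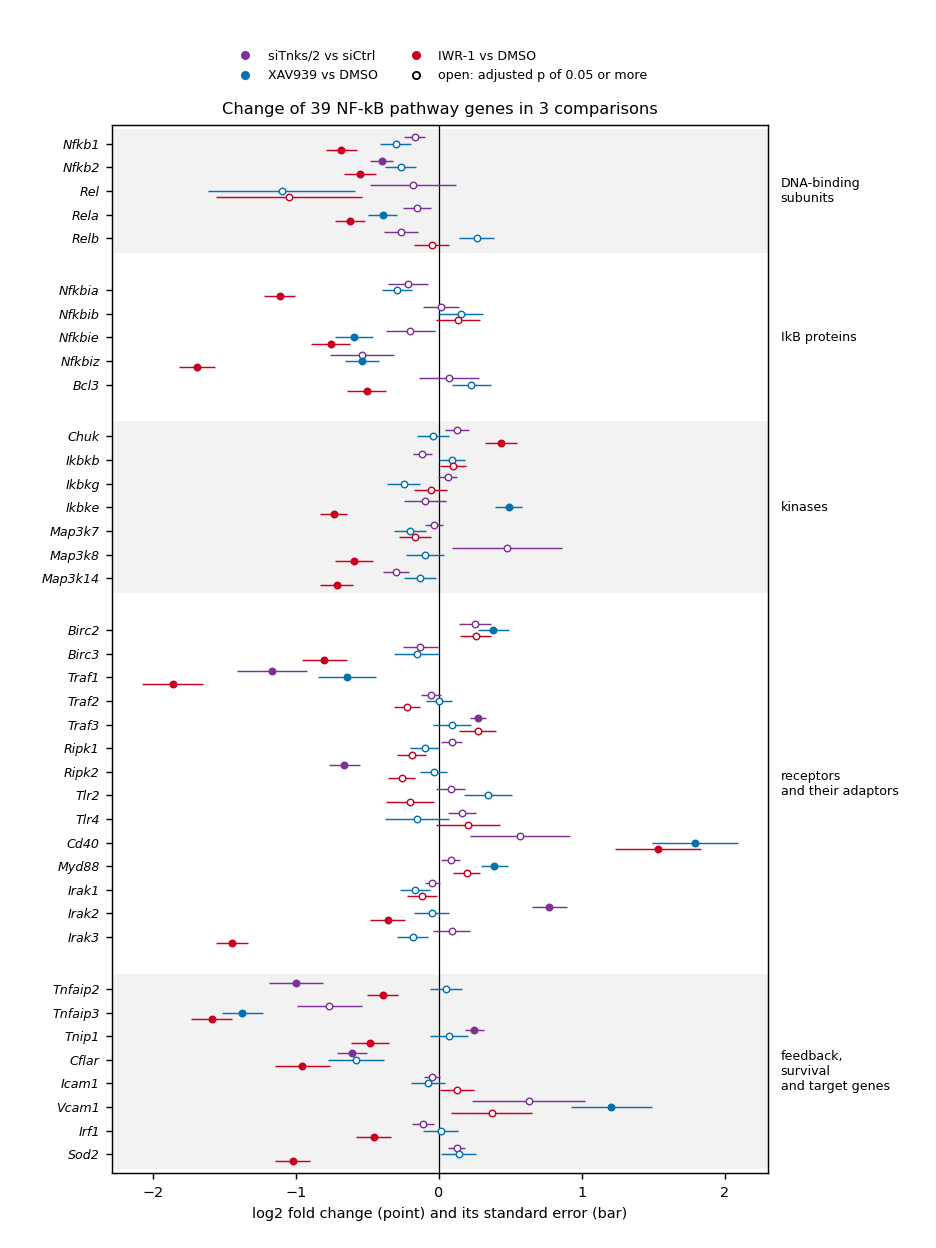
Log2 fold change (horizontal axis, points) with its standard error (bars) of the 39 genes, grouped by role, for siTnks/2 against siCtrl (purple), XAV939 against DMSO (blue) and IWR-1 against DMSO (red). Filled points have an adjusted p under 0.05, and 20 of the red points are filled and left of 0, against 5 blue and 5 purple ones.

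Among the DNA-binding subunits, 3 of 5 fell with IWR-1, 1 with XAV939 and 1 with knockdown, where 20.2%, 9.85% and 7.61% of all genes were lower. *Nfkb1*, which encodes p105 and p50, had 129, 126 and 139 CPM in the DMSO libraries 1 to 3, 96.5, 123 and 101 with XAV939 and 78.9, 80.2 and 86.2 with IWR-1. Every IWR-1 library was below every XAV939 library, and these were below DMSO. *Nfkb1* fell with IWR-1 (log2 fold change -0.68 ± 0.11, adjusted p = 0.000642) and had -0.30 ± 0.11 (adjusted p = 0.0817) with XAV939, a value that passed with the block (adjusted p = 0.0351). In the siRNA libraries it had 58.4, 64.8 and 56.6 CPM in siCtrl and 53.6, 50.9 and 55.2 with siTnks/2, for -0.17 ± 0.07 (adjusted p = 0.136). *Nfkb2*, which encodes p100 and p52 of the alternative pathway, had 29.6, 33.6 and 30.7 CPM in siCtrl and 23.98, 22 and 25.1 with siTnks/2. The groups did not overlap, and the log2 fold change was -0.40 ± 0.08 (adjusted p = 0.0208). In the drug experiment *Nfkb2* had 64.1, 57.2 and 63.2 CPM with DMSO, 45.4, 55.8 and 52.1 with XAV939 and 38.5, 40.96 and 46.3 with IWR-1. It was lower with IWR-1 (-0.55 ± 0.11, adjusted p = 0.00271) and had -0.27 ± 0.11 (adjusted p = 0.122) with XAV939, with exons that share 12.6% and 7.08% of their bases with genes on the other strand.

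*Rela*, the main activating subunit, had 116, 108 and 91.7 CPM with DMSO, 84, 79.98 and 76.2 with XAV939 and 67.8, 68.7 and 68.5 with IWR-1. Both drug groups lay wholly below DMSO, with log2 fold changes of -0.39 ± 0.10 (adjusted p = 0.0241) and -0.62 ± 0.10 (adjusted p = 0.000787). In siCtrl it had 58.7, 71.8 and 56.7 CPM and with siTnks/2 56.4, 58.6 and 53.2, groups that overlapped (-0.15 ± 0.10, adjusted p = 0.309). *Rel*, the c-Rel subunit, was low, between 0.808 and 4.997 CPM over all 15 libraries. DMSO replicate 3 held the highest value, and the log2 fold changes of -1.10 ± 0.52 (adjusted p = 0.155) with XAV939 and -1.05 ± 0.51 (adjusted p = 0.123) with IWR-1 passed with the block (adjusted p = 0.00456 and 0.00245). The IWR-1 value also passed without IWR-1 replicate 3 (adjusted p = 0.0494). *Relb*, the partner of p52, ranged from 13.6 to 20.2 CPM in the siRNA libraries and from 34.6 to 55.2 CPM in the drug libraries, and passed in none of the 3 comparisons with a control.

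The IκB proteins and their relatives fell in 4 of 5 cases with IWR-1 and in 2 with XAV939, beside 20.2% and 9.85% of all genes. *Nfkbia*, which encodes IκBα, the inhibitor that is itself made in response to NF-κB, had 148, 148 and 119.8 CPM with DMSO, 118, 115 and 107 with XAV939 and 65.9, 61.02 and 65.2 with IWR-1. All IWR-1 values were below all XAV939 values. *Nfkbia* fell with IWR-1, with a log2 fold change of -1.11 ± 0.11 (adjusted p = 2.51e-05), and had -0.29 ± 0.11 (adjusted p = 0.0824) with XAV939, which passed with the block (adjusted p = 0.032). In siCtrl it had 13.3, 17.4 and 12.98 CPM and with siTnks/2 12.3, 13.8 and 11.4, overlapping groups with -0.22 ± 0.14 (adjusted p = 0.312). *Nfkbiz*, whose product IκBζ acts in the nucleus as a co-activator, had 320.3, 279.5 and 334 CPM with DMSO, 196, 212 and 235 with XAV939 and 87.5, 91.4 and 110 with IWR-1. The 3 groups were apart from each other, and the log2 fold changes were -0.54 ± 0.12 (adjusted p = 0.0129) with XAV939 and -1.69 ± 0.13 (adjusted p = 5.84e-06) with IWR-1. In the siRNA libraries *Nfkbiz* had 13.6, 24.7 and 16.2 CPM in siCtrl and 10.8, 13.4 and 13.2 with siTnks/2. These did not overlap, but the value of -0.54 ± 0.22 (adjusted p = 0.135) passed only with the block (adjusted p = 0.034).

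*Nfkbie*, which encodes IκBε, had 8.90, 8.67 and 7.98 CPM with DMSO, 6.36, 5.44 and 5.03 with XAV939 and 4.94, 5.01 and 5.10 with IWR-1. Both drugs lowered it, with log2 fold changes of -0.60 ± 0.13 (adjusted p = 0.0116) and -0.76 ± 0.13 (adjusted p = 0.00117), and all treated libraries lay below DMSO. In siCtrl it had 3.05, 4.32 and 3.58 CPM and with siTnks/2 2.88, 3.39 and 3.23 (-0.20 ± 0.17, adjusted p = 0.441). *Bcl3*, a nuclear IκB that binds p50 and p52, had 105, 121 and 81.7 CPM with DMSO, 116, 131 and 114 with XAV939 and 69.3, 75.5 and 72.6 with IWR-1. Only the IWR-1 libraries were apart from DMSO, and *Bcl3* fell there, at -0.50 ± 0.14 (adjusted p = 0.0141). In siCtrl and siTnks/2 it had 14.7, 19.8 and 13.4 and 15.6, 21.3 and 13.5 CPM, which overlapped (0.07 ± 0.21, adjusted p = 0.835). *Nfkbib*, which encodes IκBβ, stayed between 15.3 and 26.2 CPM in all 15 libraries and passed in none of the comparisons.

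Of 7 kinases, 3 fell and 1 rose with IWR-1, beside 20.2% and 16.2% of all genes. *Ikbke*, an IκB kinase-related enzyme also known for interferon responses, had 58.2, 55.5 and 54.7 CPM with DMSO, 79.3, 82.1 and 74.9 with XAV939 and 34.5, 30.4 and 36.2 with IWR-1. It was the only one of the 39 genes called in opposite directions by the drugs, with a rise of 0.49 ± 0.10 (adjusted p = 0.00585) with XAV939 and a log2 fold change of -0.74 ± 0.10 (adjusted p = 0.00017) with IWR-1. The 3 drug-experiment groups did not overlap. In siCtrl it had 12.4, 12.6 and 14.4 CPM and with siTnks/2 9.89, 14.01 and 13.02, overlapping groups (-0.10 ± 0.15, adjusted p = 0.669). *Map3k14*, the kinase NIK of the alternative pathway, had 20.8, 19.1 and 17.4 CPM with DMSO, 16.3, 18.9 and 16.97 with XAV939 and 11.5, 11.3 and 11.97 with IWR-1. IWR-1 lowered it (-0.72 ± 0.11, adjusted p = 0.000574), with no overlap. In the siRNA libraries *Map3k14* had 11.5, 12.4 and 10.99 CPM and, after knockdown, 9.61, 9.66 and 9.07. Its value of -0.30 ± 0.09 (adjusted p = 0.0639) passed with the block (adjusted p = 0.0374). *Map3k8*, the kinase TPL2, had 14.8, 16.5 and 14.4 CPM with DMSO, 14.4, 13.2 and 15.1 with XAV939 and 8.52, 10.3 and 11.4 with IWR-1. IWR-1 lowered it (-0.59 ± 0.13, adjusted p = 0.00505). Control siRNA libraries had 2.36, 4.84 and 2.33 CPM and siTnks/2 libraries 3.19, 6.49 and 3.59, groups that overlapped (0.48 ± 0.39, adjusted p = 0.407), and this value passed with the block (adjusted p = 0.0287).

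*Chuk*, the catalytic subunit IKKα, rose with IWR-1. It had 43.7, 43.8 and 51.3 CPM with DMSO, 43.7, 40.1 and 51.1 with XAV939 and 63.1, 61.6 and 62.97 with IWR-1, and the last group lay above both others (0.44 ± 0.11, adjusted p = 0.0105). Control siRNA libraries had 56.3, 60.2 and 49.6 CPM and siTnks/2 libraries 58.3, 64.3 and 59.1 (0.13 ± 0.09, adjusted p = 0.32). *Ikbkb*, which encodes IKKβ, ranged from 30.4 to 38.1 CPM over all 15 libraries, *Ikbkg*, the regulatory subunit NEMO, from 27.8 to 42.7 CPM and *Map3k7*, the kinase TAK1, from 76.2 to 109.8 CPM. None of these 3 passed in any comparison with a control, with or without the block.

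Among the receptors and their adaptors, *Traf1* was the only member of the 39 called in all 3 comparisons with a control without the block. With the block, *Nfkbiz*, *Tnfaip3* and *Cflar* were also called lower in all 3, and *Vcam1* was called higher in all 3. *Traf1*, an adaptor of the TNF receptor family, had 2.99, 3.47 and 4.25 CPM in siCtrl and 1.35, 1.25 and 2.06 with siTnks/2. In the drug experiment it had 9.09, 7.39 and 8.45 CPM with DMSO, 4.53, 6.53 and 4.91 with XAV939 and 1.63, 2.41 and 2.70 with IWR-1. Treated libraries lay below their controls in each case, and *Traf1* fell, with log2 fold changes of -1.17 ± 0.25 (adjusted p = 0.0209) with knockdown, -0.64 ± 0.20 (adjusted p = 0.0497) with XAV939 and -1.86 ± 0.21 (adjusted p = 7.16e-05) with IWR-1. The XAV939 call was lost in 6 of the 9 fits that left out 1 library (without any of the DMSO libraries, without XAV939 replicates 1 or 3 and without IWR-1 replicate 2). It was also lost with RLE scaling, upper-quartile scaling, a minimum of 10 counts and only the groups compared (adjusted p between 0.0505 and 0.0616). The knockdown call was lost without any siCtrl library or without siTnks/2 replicate 1.

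*Cd40* was low, with 0.518, 0.349 and 0.597 CPM in DMSO, 1.59, 2.48 and 1.48 with XAV939 and 1.54, 1.80 and 1.25 with IWR-1. Both drugs raised it, by 1.79 ± 0.30 (adjusted p = 0.00186) and 1.54 ± 0.30 (adjusted p = 0.00148), with all treated libraries above DMSO. Control siRNA libraries had 0.435, 0.406 and 0.429 CPM and siTnks/2 libraries 0.902, 0.392 and 0.685, groups that overlapped (0.57 ± 0.35, adjusted p = 0.234). *Myd88*, the shared adaptor of Toll-like and IL-1 receptors, had 41.4, 47.4 and 42.7 CPM with DMSO, 55.8, 61.5 and 54.9 with XAV939 and 48.2, 50.9 and 51.5 with IWR-1. Both drug groups were above DMSO, and the rise passed with XAV939 (0.39 ± 0.09, adjusted p = 0.0172) while IWR-1 gave 0.20 ± 0.09 (adjusted p = 0.131). In the siRNA libraries *Myd88* had 29.7, 31.3 and 30.4 CPM and 32.1, 34.1 and 30.7 (0.08 ± 0.06, adjusted p = 0.397). *Tlr2* and *Tlr4*, receptors for bacterial products, ranged from 12.7 to 15.7 and from 39.1 to 51.9 CPM in the siRNA libraries and from 56.6 to 109.5 and from 23.9 to 48.8 CPM in the drug libraries. Of the 3 comparisons with a control they passed in none, except that *Tlr2* was higher with XAV939 with the block (0.35, adjusted p = 0.0264) or without DMSO replicate 3 (0.52, adjusted p = 0.0361).

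Within the IRAK family, which acts below Myd88, 1 member rose with knockdown and 2 fell with IWR-1, beside 10.4% and 20.2% of all genes. *Irak2*, a kinase-like adaptor, had 11.8, 11.97 and 11.1 CPM in siCtrl and 17.9, 23.3 and 18.4 with siTnks/2, with no overlap. It rose with knockdown by 0.77 ± 0.12 (adjusted p = 0.0102). In the drug experiment *Irak2* had 17.8, 19.9 and 21.3 CPM with DMSO, 17.1, 20.5 and 19.5 with XAV939 and 13.7, 16.4 and 15.9 with IWR-1, and it fell with IWR-1 (-0.36 ± 0.12, adjusted p = 0.0408) while XAV939 gave -0.05 ± 0.12 (adjusted p = 0.819). *Irak3* had 63.7, 64.7 and 65.6 CPM with DMSO, 58.8, 55.4 and 56.7 with XAV939 and 19.9, 24.2 and 26.9 with IWR-1. The drug groups lay below DMSO and IWR-1 below XAV939, for -1.45 ± 0.11 (adjusted p = 7.84e-06) with IWR-1 and -0.18 ± 0.11 (adjusted p = 0.277) with XAV939. In siCtrl *Irak3* had 5.26, 5.17 and 5.72 CPM and with siTnks/2 5.55, 5.21 and 6.46 (0.09 ± 0.13, adjusted p = 0.651). *Irak1* stayed between 62.5 and 85.6 CPM in all 15 libraries and passed nowhere.

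Of the RIPK and other TRAF genes, knockdown lowered *Ripk2* and raised *Traf3*. *Ripk2*, the kinase that carries NOD signals, had 25.3, 29.1 and 28.8 CPM in siCtrl and 17.1, 15.7 and 19.8 with siTnks/2. The groups were apart, and *Ripk2* fell, at -0.66 ± 0.11 (adjusted p = 0.0115). Across the drug libraries it had 52.3, 54.5 and 51.8 CPM with DMSO, 52.2, 54.5 and 47.99 with XAV939 and 46.5, 40.7 and 45.3 with IWR-1, for -0.04 ± 0.09 (adjusted p = 0.822) and -0.26 ± 0.09 (adjusted p = 0.0507), and the IWR-1 value passed with the block (adjusted p = 0.0334). *Traf3*, which restrains NIK, had 58.5, 58.5 and 61.2 CPM in siCtrl and 68.7, 71.7 and 75.3 with siTnks/2. It rose by 0.28 ± 0.06 (adjusted p = 0.0223), without overlap. Across the drug libraries *Traf3* had 45.8, 43.4 and 53.1 CPM with DMSO, 42.6, 59.5 and 50 with XAV939 and 53.2, 59.2 and 59.4 with IWR-1 (0.09 ± 0.13, adjusted p = 0.658 and 0.27 ± 0.13, adjusted p = 0.134). *Traf2* ranged from 20.3 to 22.5 CPM in the siRNA and from 36.8 to 48.4 CPM in the drug libraries, and was lower with IWR-1 with the block (-0.22, adjusted p = 0.0462) or without XAV939 replicate 2 (adjusted p = 0.0384). *Ripk1* ranged from 48.04 to 66.4 CPM over all libraries and passed nowhere.

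The inhibitor-of-apoptosis genes *Birc2* and *Birc3* encode ubiquitin ligases of the TNF receptor complex. *Birc3*, itself a known NF-κB target, had 22.6, 27.5 and 29.6 CPM with DMSO, 20.02, 28.9 and 22.7 with XAV939 and 13.9, 14.7 and 16.99 with IWR-1. It fell with IWR-1 (-0.80 ± 0.16, adjusted p = 0.00236), where the libraries were all below DMSO, and had -0.16 ± 0.16 (adjusted p = 0.523) with XAV939. *Birc2* had 30.1, 35.3 and 34.8 CPM with DMSO, 47.1, 43.4 and 40.1 with XAV939 and 39.04, 43.1 and 37.7 with IWR-1. XAV939 raised it (0.38 ± 0.11, adjusted p = 0.0332), a call lost in 6 of the 9 fits without 1 library (without DMSO replicate 1, XAV939 replicates 1 or 2 or any of the IWR-1 libraries), with no filter (adjusted p = 0.0585) and with only the groups compared (adjusted p = 0.0975). With IWR-1 *Birc2* gave 0.26 ± 0.11 (adjusted p = 0.0852), with all libraries above DMSO. In siCtrl and siTnks/2 *Birc2* had 21.1, 22.03 and 21.8 and 23.5, 30.2 and 23.7 CPM (0.25 ± 0.11, adjusted p = 0.146), and *Birc3* had 7.34, 8.24 and 7.81 and 6.56, 6.77 and 8.03 CPM (-0.13 ± 0.12, adjusted p = 0.485).

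Of the feedback, survival and target genes, 6 of 8 fell with IWR-1 (20.2% of all genes). With XAV939 1 fell and 1 rose (9.85% and 7.57% of all genes), and with knockdown 2 fell and 1 rose (7.61% and 10.4%). *Tnfaip3*, which encodes the deubiquitinase A20 that ends the signal, had 46.2, 36.7 and 49.4 CPM with DMSO, 14.4, 18.5 and 18.1 with XAV939 and 14.3, 13.8 and 15.8 with IWR-1. Both drug groups lay far below DMSO and overlapped each other. The log2 fold changes were -1.37 ± 0.14 (adjusted p = 0.000179) with XAV939 and -1.59 ± 0.14 (adjusted p = 1.77e-05) with IWR-1. In siCtrl *Tnfaip3* had 4.95, 7.91 and 4.84 CPM and with siTnks/2 3.92, 3.28 and 3.10, with no overlap and -0.77 ± 0.23 (adjusted p = 0.0569), which passed with the block (adjusted p = 0.0344). *Tnip1*, which encodes ABIN1, the partner of A20, had 97.3, 101 and 76.6 CPM with DMSO, 100.5, 106 and 83.02 with XAV939 and 64.3, 71.3 and 61.4 with IWR-1. It fell with IWR-1 (-0.48 ± 0.13, adjusted p = 0.0155) and gave 0.07 ± 0.13 (adjusted p = 0.738) with XAV939. After knockdown the direction was the other one, from 32.3, 33.5 and 33.6 CPM in siCtrl to 40.2, 41.5 and 36.6 with siTnks/2, a rise of 0.25 ± 0.07 (adjusted p = 0.0454). That call was lost without any 1 of 5 libraries, all but siTnks/2 replicate 3, and with no filter (adjusted p = 0.0632).

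*Tnfaip2*, a TNF-induced gene, had 45.9, 45.2 and 48.2 CPM in siCtrl and 25.3, 16.1 and 28.2 with siTnks/2, and fell, at -0.998 ± 0.19 (adjusted p = 0.0167). The lowest value was in siTnks/2 replicate 2, and without that library the log2 fold change was -0.79. Across the drug libraries *Tnfaip2* had 119.7, 119 and 133 CPM with DMSO, 124, 128 and 134 with XAV939 and 87.1, 87.3 and 109 with IWR-1. It fell with IWR-1 (-0.39 ± 0.11, adjusted p = 0.0164) and gave 0.05 ± 0.11 (adjusted p = 0.788) with XAV939. *Cflar*, which encodes the caspase-8 inhibitor c-FLIP, had 52.9, 50.1 and 50.4 CPM in siCtrl and 36.02, 28.1 and 36.3 with siTnks/2, and fell, at -0.61 ± 0.10 (adjusted p = 0.013). Across the drug libraries *Cflar* had 55.99, 50.8 and 88.5 CPM with DMSO, 39.6, 42.3 and 48.9 with XAV939 and 30.3, 31.97 and 38.5 with IWR-1. All treated libraries lay below DMSO, of which replicate 3 was highest. *Cflar* fell with IWR-1 (-0.95 ± 0.20, adjusted p = 0.00295), while the XAV939 value of -0.58 ± 0.19 (adjusted p = 0.0633) passed with the block (adjusted p = 0.0034).

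*Sod2* was the most abundant member per kilobase in DMSO, with 606, 694 and 534 CPM, and had 665, 734 and 620.4 with XAV939 and 289.6, 316 and 297 with IWR-1. XAV939 overlapped DMSO (0.14 ± 0.12, adjusted p = 0.461), and IWR-1 lay below both and lowered *Sod2*, at -1.02 ± 0.12 (adjusted p = 0.000102). In siCtrl and siTnks/2 it had 64.2, 63.1 and 67.3 and 72.9, 72.3 and 67.2 CPM (0.13 ± 0.06, adjusted p = 0.175). *Irf1*, an interferon regulatory factor, had 32.8, 32.5 and 32.6 CPM with DMSO, 30.1, 39.6 and 29.2 with XAV939 and 23.2, 23.2 and 24.9 with IWR-1. It fell with IWR-1, at -0.46 ± 0.12 (adjusted p = 0.0139), and XAV939 gave 0.01 ± 0.12 (adjusted p = 0.953). The siRNA libraries had 14.5, 15.9 and 15.5 CPM in siCtrl and 14.4, 13.9 and 14.2 with siTnks/2 (-0.11 ± 0.08, adjusted p = 0.351).

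*Vcam1*, an adhesion receptor, had 10.8, 13.8 and 19.3 CPM with DMSO, 25.5, 30.02 and 45.95 with XAV939 and 13.2, 19.1 and 24.4 with IWR-1. XAV939 raised it, with every library above DMSO (1.21 ± 0.28, adjusted p = 0.0149), and IWR-1 gave 0.37 ± 0.28 (adjusted p = 0.342) with overlapping libraries, a value that passed with the block (adjusted p = 0.00749). In siCtrl *Vcam1* had 3.79, 1.63 and 4.99 CPM and with siTnks/2 5.07, 4.10 and 7.11, for 0.63 ± 0.39 (adjusted p = 0.291), or 0.68, adjusted p = 0.0413 with the block. *Icam1* ranged from 83.6 to 91.95 CPM in the siRNA libraries and from 130.8 to 172.7 CPM in the drug libraries. It passed in none of the comparisons with a control, and 20.2% of its exon bases are shared with an antisense gene.

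**Figure D3:**
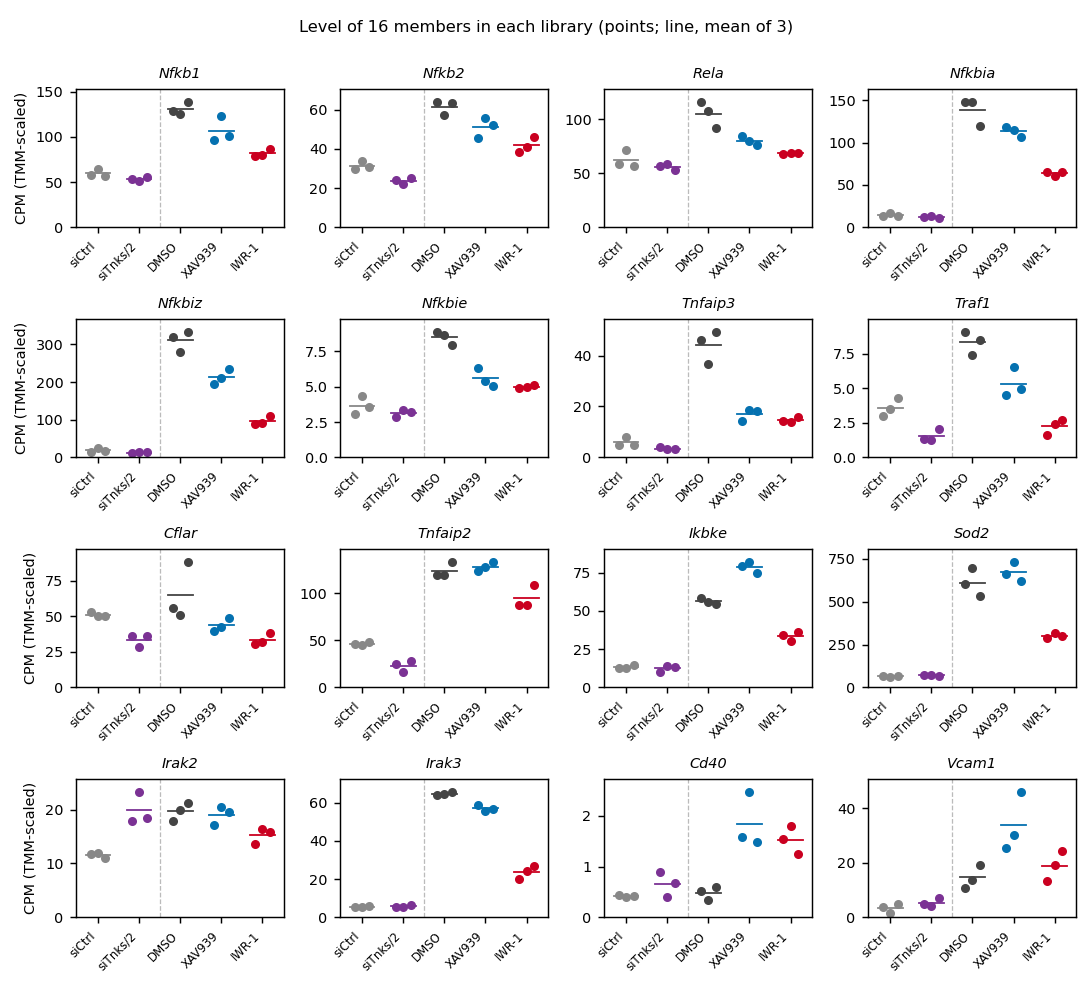
TMM-scaled CPM of 16 members in each of the 15 libraries (points) with the mean of each group of 3 (line), where the dashed line separates the siRNA from the drug experiment and each panel has its own axis from 0. IWR-1 libraries of *Nfkbia*, *Nfkbiz*, *Sod2*, *Irak3* and *Ikbke* sit below both DMSO and XAV939.

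IWR-1 and XAV939 were also compared with each other at the same 10 μM and 108 h, in 39 contrasts adjusted within all 13873 genes tested. IWR-1 was lower than XAV939 for 15 of the 39 genes (38.5%, against 10.2% of all genes) and higher for 1, *Chuk* (2.56%, against 7.37%). The median log2 difference was -0.28 over the 39 genes and -0.003 over all genes. *Irak3* (-1.26 ± 0.11, adjusted p = 8e-05), *Ikbke* (-1.22 ± 0.10, adjusted p = 4.39e-05), *Traf1* (-1.22 ± 0.22, adjusted p = 0.00299), *Sod2* (-1.16 ± 0.12, adjusted p = 0.000231) and *Nfkbiz* (-1.15 ± 0.12, adjusted p = 0.000242) differed most. *Nfkbia* differed by -0.82 ± 0.11 (adjusted p = 0.000659) and *Bcl3* by -0.73 ± 0.14 (adjusted p = 0.00457). The other calls were *Birc3* (-0.65), *Map3k14* (-0.58), *Tnip1* (-0.55), *Tlr2* (-0.54), *Map3k8* (-0.50), *Irf1* (-0.47), *Tnfaip2* (-0.44) and *Nfkb1* (-0.38), and *Chuk* was 0.48 ± 0.11 (adjusted p = 0.0142). *Tnfaip3* (-0.21 ± 0.14, adjusted p = 0.346), *Nfkbie* (-0.16 ± 0.14, adjusted p = 0.455) and *Rela* (-0.23 ± 0.10, adjusted p = 0.157), which fell with both drugs, did not pass. Unadjusted, the difference had a 95% interval of -0.53 to 0.10 for *Tnfaip3*, a 95% interval of -0.46 to 0.14 for *Nfkbie* and a 95% interval of -0.46 to -0.002 for *Rela*. *Cd40*, which rose with both, differed by -0.26 ± 0.26 (adjusted p = 0.534) (95% interval of -0.84 to 0.32). With the block 20 were lower and 2 higher, while calls over all genes went from 2442 to 4258. Without IWR-1 replicate 1 the count was 8 and without IWR-1 replicate 2 it was 9, all lower. *Nfkbia*, *Nfkbiz*, *Bcl3*, *Ikbke*, *Traf1*, *Sod2*, *Map3k14* and *Irak3* were called in each of the 9 fits that left out a library. Each of the other 8 calls was lost without IWR-1 replicate 1 and, except for *Tnip1*, also without IWR-1 replicate 2 (adjusted p up to 0.154 for *Tlr2* and 0.0545 for *Chuk*). *Tlr2* was also lost with RLE scaling (adjusted p = 0.0507) and *Nfkb1* with no filter (adjusted p = 0.0538).

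**Figure D4:**
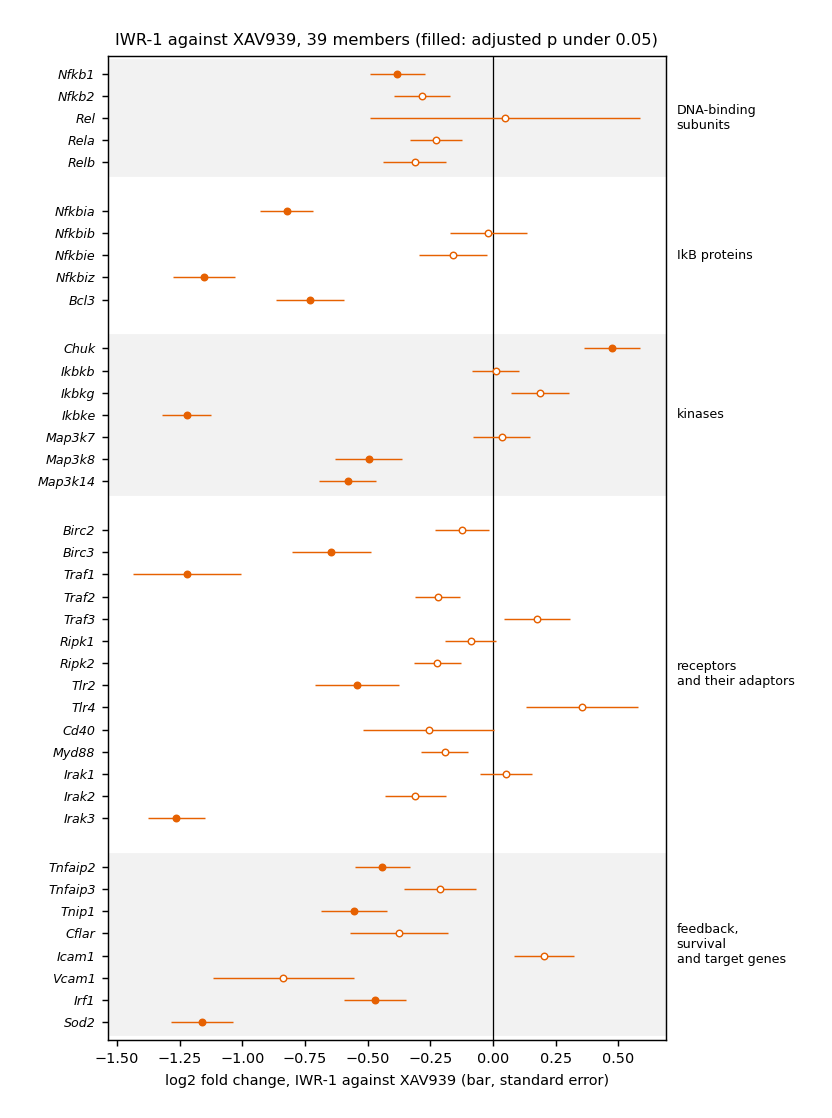
Log2 fold change of IWR-1 against XAV939 (horizontal axis) with its standard error for the 39 genes, grouped by role, with filled points for an adjusted p under 0.05. Filled points lie left of 0 for 15 genes, with *Irak3*, *Ikbke*, *Traf1*, *Sod2* and *Nfkbiz* farthest out, and right of 0 for *Chuk*.

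Whether the drugs and the knockdown had different effects was tested as a difference of log2 fold changes in 1 model over the 15 libraries. The effect of IWR-1 differed from that of knockdown for 13 of the 39 genes (24.4% of all genes, either direction), being lower for 12 and higher for *Ripk2*. The effect of XAV939 differed for 4, a share no larger than that of all genes (13.5%, either direction). Of these, *Tnfaip2*, *Ripk2* and *Ikbke* were higher and *Irak2* was lower. The shares of all genes were not split by direction. The counts of 13 and 4 are from the fit without the block. With the block these became 18 and 8. Calls over all genes went from 3483 to 5181 for IWR-1 and from 1922 to 4018 for XAV939. *Traf1*, called lower in all 3 comparisons, gave 0.51 ± 0.33 (adjusted p = 0.291) for XAV939 minus knockdown and -0.70 ± 0.33 (adjusted p = 0.144) for IWR-1 minus knockdown. The experiments differ in their controls and in the stated time as well as in the agent, and these cannot be told apart.

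Other genes of the pathway were also counted. Among 62 further receptors, adaptors, kinases and regulators, of which 57 were tested in the siRNA and 61 in the drug experiment, knockdown raised 2 and lowered 9, XAV939 raised 2 and lowered 10, and IWR-1 raised 4 and lowered 23. The shares lower were 15.8%, 16.4% and 37.7%, against 7.61%, 9.85% and 20.2% of all genes, and the shares higher were 3.51%, 3.28% and 6.56%, against 10.4%, 7.57% and 16.2%. Their median log2 fold changes were -0.01, -0.12 and -0.12, and those of all genes -0.001, 0.02 and 0.006. With the block the counts were 4 and 14 for knockdown, 6 and 20 for XAV939 and 8 and 24 for IWR-1. Calls over all genes also rose with the block, to 4727, 4630 and 6593. *Zc3h12a*, the ribonuclease regnase-1 that degrades inflammatory transcripts, fell with knockdown (-0.74 ± 0.14, adjusted p = 0.0165) and with IWR-1 (-1.65 ± 0.11, adjusted p = 2.99e-06), where it had between 36.6 and 47.3 CPM against between 131 and 135 in DMSO. *Card10*, a scaffold protein, fell with knockdown (-0.86 ± 0.17, adjusted p = 0.0194) and XAV939 (-1.36 ± 0.21, adjusted p = 0.0017), and *Tnfrsf12a*, the TWEAK receptor, fell with knockdown (-0.71 ± 0.12, adjusted p = 0.0111). *Tnip3*, a relative of *Tnip1*, fell with XAV939 (-1.58 ± 0.21, adjusted p = 0.000791) and IWR-1 (-4.18 ± 0.27, adjusted p = 2.3e-06), as did *Ticam2*, an adaptor of TLR4 (-2.74 ± 0.33, adjusted p = 0.000283 and -2.88 ± 0.33, adjusted p = 4.86e-05). Rises were found for *Peli2* (0.62 ± 0.14, adjusted p = 0.0271) and *Nkiras1* (0.56 ± 0.15, adjusted p = 0.0434) in knockdown, *Tlr1* (0.59 ± 0.16, adjusted p = 0.0284 and 0.75 ± 0.16, adjusted p = 0.0036) and *Tab1* (0.45 ± 0.12, adjusted p = 0.0219 and 0.50 ± 0.12, adjusted p = 0.00619) with both drugs and *Traf5* (0.52 ± 0.17, adjusted p = 0.0343) with IWR-1. Between the drugs, 8 of these genes were lower (13.1%) and 1 was higher (1.64%) with IWR-1, where 10.2% and 7.37% of all genes were, so the share lower is near that of all genes. The named genes were *Tnip3* (-2.60 ± 0.28, adjusted p = 0.000156), *Zc3h12a* (-1.53 ± 0.11, adjusted p = 3.54e-05) and *Cd14* (-1.19 ± 0.16, adjusted p = 0.000886) and, upward, *Tab2* (0.36 ± 0.10, adjusted p = 0.0324).

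Secreted and enzyme products known to respond to NF-κB were mostly lower with IWR-1. Of 32 such genes, 23 were tested in the siRNA and 30 in the drug experiment. IWR-1 lowered 29 and raised 1, XAV939 lowered 16 and raised 1, and knockdown lowered 5 and raised 3, with median log2 fold changes of -2.45, -0.75 and -0.32. The shares lower were 96.7%, 53.3% and 21.7%, against 20.2%, 9.85% and 7.61% of all genes. The shares higher were 3.33%, 3.33% and 13%, against 16.2%, 7.57% and 10.4%, so that of knockdown is near the share of all genes. With the block, where calls over all genes rose too, XAV939 lowered 22, and knockdown lowered 8 and raised 7. *Nos2*, the inducible nitric oxide synthase, had between 1213 and 1608 CPM in DMSO and between 54.1 and 81.9 with IWR-1 (-4.44 ± 0.20, adjusted p = 6.89e-07). *Il6*, an inflammatory cytokine, had between 107 and 152 CPM in DMSO and between 4.74 and 11.02 with IWR-1 (-4.11 ± 0.49, adjusted p = 9.47e-05). The chemokine *Ccl5* had between 9.18 and 19.4 and between 0.580 and 0.698 CPM (-4.39 ± 0.38, adjusted p = 1.26e-05). *Csf1*, a macrophage growth factor, was the exception and rose with IWR-1, with between 152 and 183 CPM in DMSO and between 305 and 367 after treatment (1.025 ± 0.12, adjusted p = 7.49e-05). XAV939 lowered the chemokine *Cxcl10* (-2.12 ± 0.19, adjusted p = 7.68e-05) and *Tnfrsf11b*, the decoy receptor osteoprotegerin (-1.98 ± 0.18, adjusted p = 8.33e-05), and raised the gelatinase *Mmp9* (0.86 ± 0.16, adjusted p = 0.00509). The cytokine *Csf2* was counted 16 to 21 times per library in DMSO and 1 or 2 times with XAV939, a ratio of 0.0751 (exact 95% interval 0.0198 to 0.203, counting error only, since reads carry no molecular identifiers). With IWR-1 *Csf2* had 0 counts in all 3 libraries, for a ratio with an exact 95% interval of 0 to 0.0681 (counting error only). *Csf2* passed the filter on low counts only through its DMSO libraries, so its fall adds no support to the counts lowered by the drugs, which include it. The median with IWR-1 does not depend on this gene's fitted value, since the upper end of its interval also lies below the median.

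Knockdown lowered *Tnfrsf11b* (-1.52 ± 0.26, adjusted p = 0.0132), *Cxcl5* (-1.14 ± 0.29, adjusted p = 0.0357) and the cytokine *Lif* (-1.06 ± 0.24, adjusted p = 0.026) and raised *Mmp9* (2.70 ± 0.66, adjusted p = 0.0269), the acute-phase gene *Saa3* (1.19 ± 0.33, adjusted p = 0.0449) and the collagenase *Mmp13* (0.98 ± 0.10, adjusted p = 0.00384). Against XAV939, IWR-1 was lower for 25 of the 30 genes (83.3%, against 10.2% of all genes) and higher for 2 (6.67%, against 7.37%), with *Ccl5* (-3.37 ± 0.38, adjusted p = 0.000279), *Mmp9* (-3.02 ± 0.18, adjusted p = 3.05e-05) and *Saa3* (-2.96 ± 0.32, adjusted p = 0.000246) lowest and *Tnfrsf11b* (1.36 ± 0.17, adjusted p = 0.000642) and *Csf1* (0.87 ± 0.12, adjusted p = 0.000824) highest. Both lists were named with results of these libraries known, so their counts are descriptions.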

How the data were processed

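The authors' deposited files hold raw read counts per gene for 15 libraries in a siRNA and a drug table, listed by Entrez gene ID. Poly(A) RNA libraries were stranded. According to the submitters' processing notes, the tools were Trimmomatic 0.32, TopHat2 2.0.13 and HTSeq 0.6.1p1 with mm10, and the strand setting of the counting is not given in the sources used here. Members whose exons overlap another gene (*Nfkb2*, *Nfkbib*, *Bcl3*, *Ikbke*, *Tnfaip2*, *Icam1*, *Vcam1*, *Irf1*, *Ripk1*, *Map3k14*, *Irak1*, *Irak2* and *Irak3*) may therefore share reads.

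Symbols were matched for 24051 of 24134 IDs. Counts were filtered with filterByExpr, scaled by TMM and fitted per table in R 4.3.3 with edgeR 4.0.16 (quasi-likelihood F test, prior count 2). Effects of drugs and knockdown were compared in 1 model over both tables (14271 genes). P-values were adjusted by the Benjamini-Hochberg method across the genes tested in a comparison, and a call is an adjusted p under 0.05. Fold changes are log2, ± is the SE, and CPM values are TMM-scaled within a table. An exact permutation test of 3 against 3 libraries cannot give a two-sided p below 0.1, so none was used. Exon lengths came from GENCODE vM21. The steps were tested on simulated counts with 1 set spread, in which 200 genes changed 2-fold. Changed genes were drawn from those with an expected count over 200, so members with lower counts, such as *Cd40*, are not covered. No change with IWR-1 was simulated. The right direction was recovered for 89.5% of the 200 genes with knockdown, 90% with XAV939 and 40% for XAV939 minus knockdown. False calls were 1.65%, 4.76% and 2.44% of the calls. A difference between effects that did not pass is therefore not shown to be absent.

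Whether replicate numbers in the titles pair the libraries was checked. After removal of group means, correlations between libraries of 1 number were 0.424 to 0.519 (3 siRNA pairs) and 0.143 to 0.553 (9 drug pairs). Libraries of different numbers gave -0.409 to 0.0972 (6 siRNA pairs) and -0.489 to 0.318 (18 drug pairs). The siRNA ranges do not overlap, so the main knockdown test, made without the number, leaves out a pairing that these values show. The drug ranges overlap, so how far the numbers pair the drug libraries is not settled. All values within 1 number were above 0.1, so a fit with the number as a block is given where it changed a call. The alternatives were RLE or upper-quartile scaling, no filter or at least 10 counts in every library, DESeq2 1.42.0, the block, only the groups compared, and leaving out each library. Members and gene lists were chosen with earlier results of these data known. Members called in at least 1 comparison with a control are given in every library and others as ranges. Of the other lists, up to 3 called genes each way with the largest log2 fold change are named per comparison.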

Additional observations from a re-analysis of the deposited data

Results flagged for a closer look

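The following members had effects that differed between the experiments, by the test of the difference of log2 fold changes over 15 libraries (edgeR's quasi-likelihood test, adjusted over 14271 genes). Causes were not tested, and the experiments differ in controls as well as in the agent.

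For XAV939 minus knockdown the difference was 1.04 ± 0.22 (adjusted p = 0.00678) for *Tnfaip2*, 0.61 ± 0.14 (adjusted p = 0.0102) for *Ripk2* and 0.57 ± 0.16 (adjusted p = 0.0346) for *Ikbke*. It was -0.84 ± 0.18 (adjusted p = 0.00753) for *Irak2*. Leaving out 1 library ended the call for *Ikbke* in 8 of 15 fits (all but those without siCtrl replicate 2, siTnks/2 replicates 2 or 3, XAV939 replicate 3 or any IWR-1 library) and for the other 3 in none.

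For IWR-1 minus knockdown the difference was -1.55 ± 0.16 (adjusted p = 1.57e-05) for *Irak3*, -1.17 ± 0.25 (adjusted p = 0.00359) for *Nfkbiz*, -1.16 ± 0.14 (adjusted p = 5.84e-05) for *Sod2* and -1.14 ± 0.18 (adjusted p = 0.00038) for *Irak2*. *Nfkbia* differed by -0.91 ± 0.17 (adjusted p = 0.00128), *Tnfaip3* by -0.84 ± 0.26 (adjusted p = 0.0321) and *Tnip1* by -0.74 ± 0.16 (adjusted p = 0.0039). *Birc3* differed by -0.68 ± 0.21 (adjusted p = 0.0302), *Ikbke* by -0.65 ± 0.17 (adjusted p = 0.0103) and *Nfkb1* by -0.52 ± 0.14 (adjusted p = 0.0125). Smaller values were -0.48 ± 0.14 (adjusted p = 0.0246) for *Rela*, -0.43 ± 0.14 (adjusted p = 0.0432) for *Map3k14* and 0.39 ± 0.14 (adjusted p = 0.0498) for *Ripk2*. *Nfkb1*, *Nfkbia*, *Nfkbiz*, *Ikbke*, *Tnip1*, *Sod2*, *Irak2* and *Irak3* kept the call in each of 15 fits without 1 library. *Ripk2* and *Map3k14* each lost it in 11 of these fits, *Tnfaip3* and *Birc3* in 7 and *Rela* in 3 (without siCtrl replicates 1 or 3 or DMSO replicate 1). *Ripk2* kept it only without siCtrl replicate 1, siTnks/2 replicate 3 or XAV939 replicates 2 or 3, and *Map3k14* only without siCtrl replicate 2, DMSO replicate 3 or XAV939 replicates 1 or 2. *Tnfaip3* lost it without siCtrl replicates 1 or 3, siTnks/2 replicate 1, DMSO replicates 1 or 3 or IWR-1 replicates 1 or 2, and *Birc3* without siCtrl replicates 1 or 3, siTnks/2 replicate 3, DMSO replicates 2 or 3 or IWR-1 replicates 1 or 2. *Ripk2* also lost it with RLE scaling and no filter (adjusted p = 0.0589 and 0.0819), and *Map3k14* with upper-quartile scaling and no filter (adjusted p = 0.0687 and 0.0869).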

How the results depend on the processing

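No called value of a member changed sign under any alternative. With the replicate block, which lost no call, knockdown had 13 calls (5 higher, 8 lower), XAV939 9 lower, IWR-1 against XAV939 2 higher, the difference between XAV939 and knockdown 8 (5 higher, 3 lower) and that between IWR-1 and knockdown 2 higher. Calls over all genes also rose with the block, from 2459 to 4727 for knockdown, 2416 to 4630 for XAV939 and 5049 to 6593 for IWR-1. With only the groups compared, XAV939 had 6 calls (3 higher, 3 lower). Members with a higher effect of IWR-1 than of knockdown numbered 0 in edgeR with RLE scaling and with no filter (2 at an unadjusted p under 0.05 in each), and 2 with upper-quartile scaling and with DESeq2. The cause of these shifts was not tested. The restricted fits also hold fewer samples.

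Over fits that left out 1 library, knockdown had 1 to 8 calls (0 to 3 higher, 1 to 5 lower) and a median log2 fold change of the members between -0.079 and -0.0316, XAV939 3 to 11 calls (2 to 6 higher, 1 to 6 lower), and IWR-1 17 to 24 (1 to 2 higher). IWR-1 against XAV939 had 8 to 17 (0 to 2 higher, 8 to 16 lower), XAV939 minus knockdown 1 to 2 lower, and IWR-1 minus knockdown 8 to 15 (0 to 2 higher). The count higher was 0 for knockdown without siCtrl replicate 3 (3 at an unadjusted p under 0.05) and for IWR-1 against XAV939 without XAV939 replicate 1 or IWR-1 replicates 1 or 2 (1 in each). An arm of 2 libraries limits such fits. *Rel* and *Cd40* stayed under 5 CPM in all 15 libraries, and the part of depth in their results was not tested.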
